A study of Mus musculus with 23 samples.

Results

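POMC neurons, the arcuate neurons that make pro-opiomelanocortin, were split by their level of Cartpt into a Cartpt-high and a Cartpt-low group. Both groups were selected on measured values: 8 of the 23 single neurons in the series had Pomc at or above 1000 FPKM, and of these 4 had Cartpt at or above 15000 FPKM and 4 had less. FPKM is fragments scaled to the length of the transcript and to the mapped fragments of the library, so levels can be set side by side between genes. The Cartpt-high cells were cells 4, 6, 12 and 13, and the Cartpt-low cells were cells 5, 11, 21 and 22, numbered in the order of their records.

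All 23 cells shared 1 genotype and source. They were GFP+ cells of the arcuate hypothalamus of the vGLUT2-IRES-Cre::loxSTOPlox-L10-GFP mouse, on a mixed background, from 2 young adult males, with no treatment of the animals named. In this line, Cre made from the vesicular glutamate transporter 2 gene removes a stop cassette, after which the cell and its descendants carry GFP fused to ribosomal protein L10, so GFP marks any cell in which the Cre was ever active. Tissue slices were digested with papain, GFP+ cells were picked by hand, and the polyadenylated RNA of each was amplified by SmartSeq2. The labels tie no cell to a mouse, so cells are not replicates of an animal, and every value below is a description of these cells with no test.

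POMC neurons restrain feeding and raise energy expenditure. Pro-opiomelanocortin is cut in secretory granules by prohormone convertases into the melanocortin alpha-MSH and the opioid beta-endorphin, and Cartpt encodes CART, another satiety peptide that many of these neurons release. POMC neurons are known to be mixed: some carry glutamate markers and others GABA markers, and they differ in their receptors for leptin, insulin, serotonin, GLP-1 and NPY.

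Pomc, the precursor gene, lies at chr12:3954951-3960618 on the plus strand, and Cartpt at chr13:99898483-99900683 on the minus strand (mm10; both protein-coding). Pomc was at 3214, 4663, 9534 and 3815 FPKM in Cartpt-high cells 4, 6, 12 and 13, and at 2378, 1607, 1664 and 1488 FPKM in Cartpt-low cells 5, 11, 21 and 22. The Cartpt-high cells thus also held more Pomc, without overlap. Cartpt was at 32793, 28433, 21807 and 15794 FPKM in the Cartpt-high cells and at 4741, 217, 471 and 61.7 FPKM in the Cartpt-low cells. The other 15 cells ranged from 50.3 to 4233 FPKM of Cartpt with a median of 368 FPKM, so Cartpt-low cells 11, 21 and 22 lay within that range and cell 5 lay just above it. The ratio of Cartpt to Pomc ran from 2.29 in cell 12 to 10.2 in cell 4 among Cartpt-high cells, and from 0.0415 in cell 22 to 1.99 in cell 5 among Cartpt-low cells.

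The cells nearest the thresholds were cell 22 at 1488 FPKM of Pomc inside and cells 3 and 16 at 922 and 599 FPKM outside. For Cartpt they were cell 13 at 15794 FPKM above the split and cell 5 at 4741 FPKM below it. Cell 5 was the intermediate cell, with the highest Pomc and Cartpt of its group. These values chose the groups and are not a result.

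**Figure D1:**
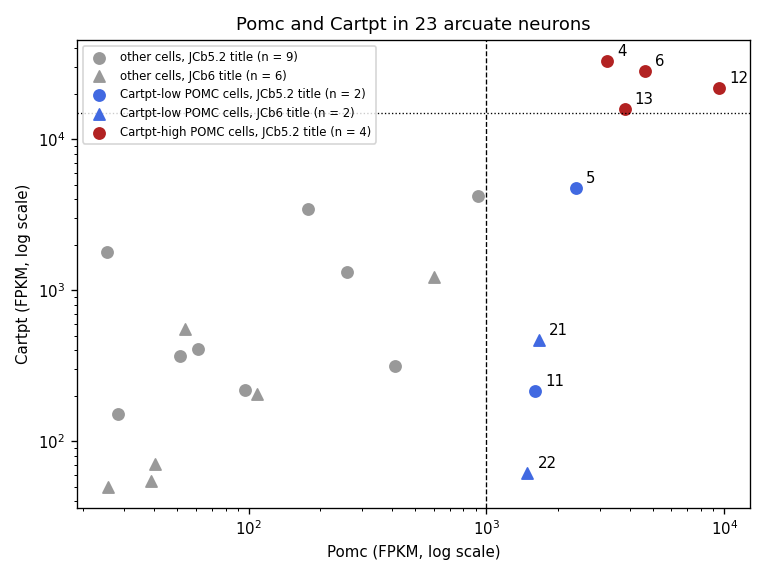
Pomc (x axis) against Cartpt (y axis) in the 23 cells, in FPKM on log scales. Colours mark the Cartpt-high POMC cells, the Cartpt-low POMC cells and the other 15 cells, circles and triangles mark the title prefixes, the dashed line is 1000 FPKM of Pomc and the dotted line 15000 FPKM of Cartpt. The 4 Cartpt-high cells all carry the JCb5.2 prefix, and cell 5 lies between them and cells 11, 21 and 22.

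The title prefix moved with the groups. All 4 Cartpt-high cells and Cartpt-low cells 5 and 11 had titles starting with JCb5.2, whereas Cartpt-low cells 21 and 22 had titles starting with JCb6, and the labels do not explain the prefixes. Peptide transcripts followed the prefix: over all 23 cells Oxt, the oxytocin gene, was at 322 to 3014 FPKM in the 8 JCb6 cells and at 0 to 30.8 FPKM in the 15 JCb5.2 cells, and Sst, the somatostatin gene, was at 0 to 0.608 FPKM in the JCb6 cells and at 18.6 to 29792 FPKM in the JCb5.2 cells. Differences that rest on cells 21 and 22 cannot be told apart from this split, so the counts of calls, the lists and many genes are also given for the 6 POMC cells with a JCb5.2 title, of which 4 are Cartpt-high and 2 Cartpt-low. Genes at or above 1 FPKM numbered 6425 to 8025 in the Cartpt-high cells and 7182 to 7822 in the Cartpt-low cells. Depth, relative to cell 12 as 1, was 1 to 1.95 in the Cartpt-high cells and 0.758 to 1.47 in the Cartpt-low cells, lowest in cells 21 and 22.

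Other cell types were looked for through their markers. Of 11 pituitary genes, which would mark corticotrophs or melanotrophs, the other Pomc-making cells, none reached 1 FPKM in any of the 8 cells and 9 were listed at 0 in all, including the corticotroph and melanotroph factor Tbx19. Of 12 general neuron markers 10 were compared, and none was called in either direction. Their summed level was nonetheless higher without overlap in the Cartpt-high cells, at 2138 to 4456 FPKM against 1685 to 1954 FPKM. Among JCb5.2 cells 1 of 9 compared was called higher, against 5.96% of all genes there. Some glial markers differed between the groups, though not in every cell. Of 7 oligodendrocyte markers the 1 compared, the myelin gene Mbp, was called lower in the Cartpt-high cells (-1.76), at most 0.344 FPKM against 1.35 to 8.97 FPKM. Mbp passed the filter only through Cartpt-low cells and was not compared among JCb5.2 cells. The summed level of the list was 0.305 to 11.3 FPKM in the Cartpt-high and 3.57 to 47.4 FPKM in the Cartpt-low cells, which overlapped through cell 13. Of 7 astrocyte markers none was compared, but 1 was at or above 1 FPKM in each of Cartpt-high cells 6, 12 and 13 and none in a Cartpt-low cell. These were S100b at 10.3 FPKM in cell 6 and Gfap, the astrocyte filament, at 165 and 7.96 FPKM in cells 12 and 13, and the list summed to 0.355 to 166 FPKM in the Cartpt-high and 0.127 to 1.23 FPKM in the Cartpt-low cells. The endothelial Pecam1 was at 18.4 and 14.3 FPKM in Cartpt-low cells 21 and 22. Cldn5, Flt1 and Ly6c1, other endothelial genes, were listed at 0 in all 8 cells. Haemoglobin Hba-a2 was present in all 8, at 5.82 to 89.5 FPKM in the Cartpt-high cells and 29.7 to 405 FPKM in the Cartpt-low cells. The part of these transcripts in the differences below was not tested.

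The stretches around the starts of Pomc, Cartpt and Sncg, the gene with the largest difference between the groups, are shown because these loci were high together in the same 4 cells. Each runs 5′ to 3′ in the gene's direction from 250 bases before to 50 bases after the annotated start (RefSeq, GRCm38.p6). Capitals mark matches on either strand to the letters TATAA, the core of a TATA box, or TGACGTCA, the cyclic AMP response element, which do not overlap each other in these windows.
Pomc, chr12:3954695-3954994, plus strand: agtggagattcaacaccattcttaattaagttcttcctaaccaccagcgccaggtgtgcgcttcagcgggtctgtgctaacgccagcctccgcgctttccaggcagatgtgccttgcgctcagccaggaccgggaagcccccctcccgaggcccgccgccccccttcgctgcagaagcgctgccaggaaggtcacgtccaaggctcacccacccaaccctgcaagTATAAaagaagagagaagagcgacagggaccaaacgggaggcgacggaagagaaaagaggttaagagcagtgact
Cartpt, chr13:99900634-99900933, minus strand: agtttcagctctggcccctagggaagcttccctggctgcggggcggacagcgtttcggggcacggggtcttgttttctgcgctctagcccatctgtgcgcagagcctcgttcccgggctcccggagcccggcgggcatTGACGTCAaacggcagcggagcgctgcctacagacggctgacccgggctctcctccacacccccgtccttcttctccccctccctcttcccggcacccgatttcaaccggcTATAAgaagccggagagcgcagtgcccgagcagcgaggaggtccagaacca
Sncg, chr14:34374620-34374919, minus strand: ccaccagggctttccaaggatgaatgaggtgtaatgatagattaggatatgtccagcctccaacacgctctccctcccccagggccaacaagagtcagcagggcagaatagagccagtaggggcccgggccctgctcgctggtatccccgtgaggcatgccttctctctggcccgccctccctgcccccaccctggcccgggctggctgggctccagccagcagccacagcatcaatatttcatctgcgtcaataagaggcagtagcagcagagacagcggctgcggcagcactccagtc
TATAA was found in the Pomc window upstream of the annotated start and in the Cartpt window at the annotated start itself, which is not where a TATA box lies, and TGACGTCA in the Cartpt window, against 24.9% and 1.79% of 32851 RefSeq promoter windows of this length. Searches on both strands for TGACTCA (AP-1), AAAGGTCA (the Nr4a1 response element) and GCGTGGGCG (Egr1), held by 5.2%, 1.51% and 0.612% of windows, found no match in these 3 windows. A match is a match of letters and no evidence of binding.

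Across the transcriptome, genes were compared when their locus was at least 300 bp long and they reached 1 FPKM in at least 3 of the 8 cells. A gene was called when the 4 cells of each group did not overlap and the group means of log2(FPKM + 1) differed by at least 1. Of 8864 genes compared, 163 (1.84%) were called higher in the Cartpt-high cells and 180 (2.03%) were called lower. The median difference over all genes compared was -0.01. Among the JCb5.2 cells alone, 4 against 2, where groups separate more easily, 465 of 7807 genes (5.96%) were higher and 583 (7.47%) lower. Of the 180 lower genes, 54 did not reach 1 FPKM in 3 of these 6 cells and so were not compared there, Gstm7, Gpr83, Cacnb3, Aldh5a1 and Slitrk1 among them, and another 4 differed by less than 1. Of the 163 higher genes all were compared there and 10 differed by less than 1. That all were compared was fixed by the filter, because each had at least 3 Cartpt-high cells at 1 FPKM. With 2 Cartpt-low cells, a lower gene passed only if a Cartpt-high cell also reached 1 FPKM. Not being compared there is thus no sign of overlap. Separation of all called genes within the 6 cells follows from separation within the 8.

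Leaving out any 1 cell, which also eases separation, gave 218 to 325 higher genes, highest without cell 12, and 249 to 333 lower genes, highest without cell 21. Differences are on the log2(FPKM + 1) scale throughout and understate the change of low genes. Counts of called members in the lists below stand against the shares of all genes called above, and no list was tested.

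**Figure D2:**
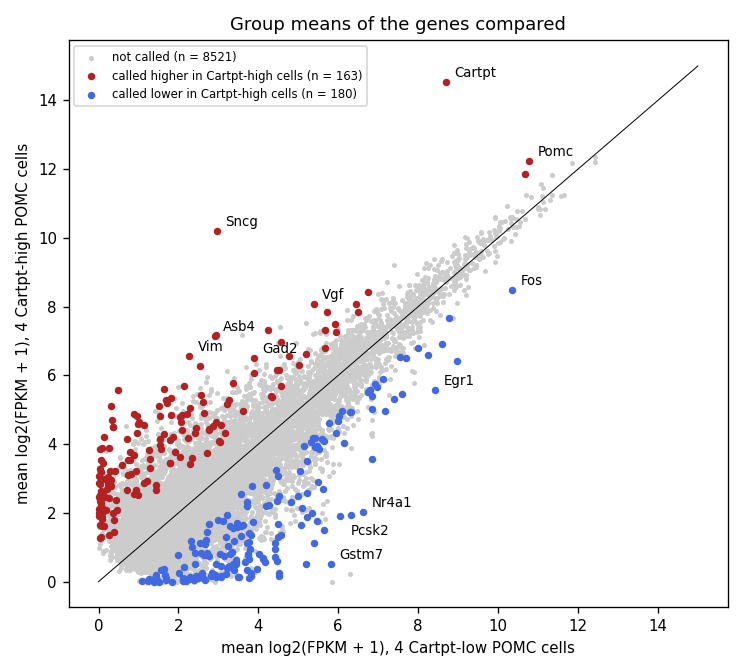
Mean log2(FPKM + 1) of the 4 Cartpt-low cells (x axis) against that of the 4 Cartpt-high cells (y axis) for the 8864 genes compared. Red points are the 163 genes called higher, blue points the 180 called lower and grey points the rest, and the line marks equal means. Sncg lies farthest above the line, while Pomc and Cartpt, above it, were the genes that chose the cells.

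The calls differed in how particular they were to these cells. Of the 163 higher genes, 58 were under 1 FPKM in all 4 Cartpt-low cells, and 121 were at 1 FPKM or more in all 4 Cartpt-high cells. Of the 180 lower genes, 54 were under 1 FPKM in all 4 Cartpt-high cells, and 151 were at 1 FPKM or more in all 4 Cartpt-low cells. Genes under 1 FPKM in all cells of a group passed the filter only through the other group. These counts thus follow in part from the filter, and the matching shares of all genes compared were not counted. In 10 of the 163, every Cartpt-high cell exceeded all 15 other neurons of the series: Anxa2, Asb4, Cartpt, Fn1, Gpr133, Pmp22, Pomc, S100a10, Sncg and Suds3. Pomc and Cartpt are among them by the choice of the cells. In none of the 180 lower genes did every Cartpt-low cell exceed all 15 other neurons. The median number of other neurons above the lowest of the 4 cells was 5 for the higher genes and 6 for the lower genes. No test of this contrast between the directions was made.

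Sncg encodes gamma-synuclein, a small protein of axon terminals (chr14:34370274-34374669, minus strand). It was at 769, 1483, 1393 and 1240 FPKM in Cartpt-high cells 4, 6, 12 and 13, and at 7.80, 8.47, 42.9 and 0 FPKM in Cartpt-low cells 5, 11, 21 and 22. The lowest Cartpt-high cell was above the highest of the other 15 neurons, at 59.4 FPKM, and the difference of means was 7.25 (7.02 among JCb5.2 cells). Of the 31 synuclein and neuronal cytoskeleton genes compared, Sncg was the 1 called and none was lower, and among JCb5.2 cells Sncb and Tubb3 were higher as well. The abundant members Stmn3 and Gap43, proteins of growing axons, were at 783 to 1122 and 816 to 1231 FPKM in the Cartpt-high cells, and at 1103 to 1550 and 902 to 1486 FPKM in the Cartpt-low cells.

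Asb4, an ankyrin-repeat adaptor of ubiquitin ligases found in arcuate feeding neurons, was at 103, 162, 154 and 152 FPKM in the Cartpt-high cells and at 31.1, 3.99, 19.2 and 0 FPKM in the Cartpt-low cells. The highest of the other 15 neurons had 77.3 FPKM, and the difference was 4.23. Asb4 was thus even among Cartpt-high cells but graded among Cartpt-low cells. Hspb8, a small heat shock chaperone, was at 226, 128, 220 and 66.5 FPKM against 36.8, 1.33, 22.5 and 0.734 FPKM, a difference of 4.22. For Asb4 and Hspb8, as for Cartpt, cell 5 was the highest of the Cartpt-low group.

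Vim, the intermediate filament vimentin, was at 74.9, 60.1, 258 and 68.4 FPKM in the Cartpt-high cells and at 0.187, 0.597, 5.43 and 43.6 FPKM in the Cartpt-low cells, a difference of 4.31. Vim is also a marker of tanycytes, the glia that line the third ventricle, and of the 5 tanycyte genes it was the 1 compared. Their summed level was 60.1 to 258 FPKM in the Cartpt-high and 0.187 to 53.8 FPKM in the Cartpt-low cells. In each Cartpt-high cell 1 member reached 1 FPKM, so the sum there restates Vim, whereas Cartpt-low cell 22 had 2 such members. The defining tanycyte factor Rax was listed at 0 in all 8 cells. Fn1, encoding fibronectin, was at 3.32, 26.2, 24.6 and 38.6 FPKM against at most 0.239 FPKM, with no other neuron above 0.604 FPKM. Pmp22, a membrane protein best known from myelin, was at 14.1, 12.3, 24.8 and 8.48 FPKM against at most 0.149 FPKM, with no other neuron above 0.249 FPKM. Fn1 and Pmp22 thus stayed under 1 FPKM in every cell outside the Cartpt-high group.

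The other genes of largest difference varied more among the Cartpt-high cells. Ifi27l2a, an interferon-inducible gene, was at 65.7, 5.83, 23.4 and 452 FPKM and Chodl, a transmembrane lectin, at 12.6, 185, 2.80 and 149 FPKM, against at most 1.5 and 1.01 FPKM in the Cartpt-low cells. Differences between 3.61 and 4.38 were found for Ptpla, an enzyme of very long chain fatty acid synthesis, the water channel Aqp11, the transcriptional cofactor Lmo2, the mitochondrial kinase-like Adck4, Gm19705, Timp1, an inhibitor of matrix proteases, the zinc finger factor Patz1, the heparan sulfate proteoglycan Gpc4 and the ubiquitin ligase Rnf8. In 5 of the 20 genes with the largest difference, Cartpt, which chose the groups, among them, all 15 other neurons stayed below the Cartpt-high cells. The median number of other neurons above the lowest Cartpt-high cell was 2. The Timp1 locus overlaps Syn1 on the opposite strand, and whether the counting used strand is not given in the sources used here. Sst, with a difference of 3.73, was listed at 0 in cells 21 and 22, and its difference among JCb5.2 cells was 1.20.

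**Figure D3:**
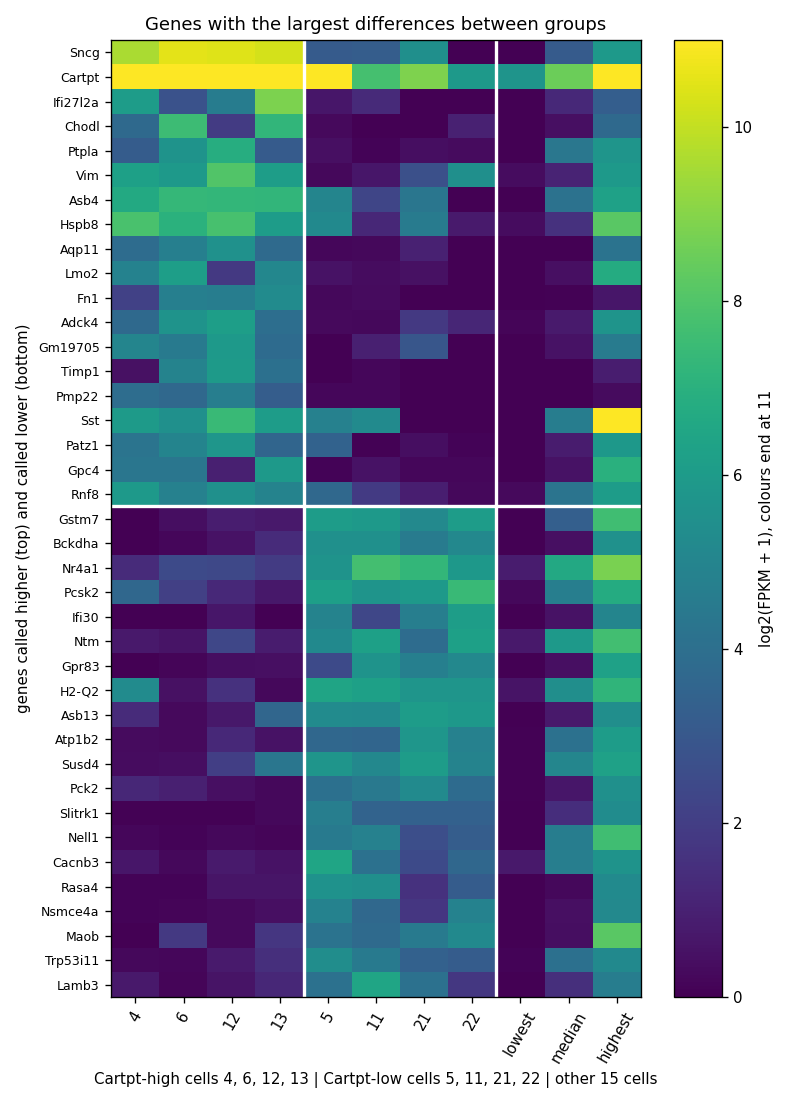
Heat map of log2(FPKM + 1) for the genes with the largest difference in each direction (rows; 1 of the 20 higher genes is not shown), in the 4 Cartpt-high cells, the 4 Cartpt-low cells and as the lowest, median and highest of the other 15 cells (columns). Colours end at 11, so Cartpt is off the scale in several columns. In 5 of the 20 upper genes, Cartpt, which chose the groups, among them, the highest other cell stayed below every Cartpt-high cell. In 0 of the 20 lower genes did it stay below every Cartpt-low cell.

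Among the genes lower in the Cartpt-high cells, Gstm7, a glutathione transferase, had the largest difference, -5.31. It was at 0, 0.316, 0.816 and 0.699 FPKM in Cartpt-high cells 4, 6, 12 and 13 and at 66.5, 58.5, 35.4 and 67.5 FPKM in Cartpt-low cells 5, 11, 21 and 22, and ranged from 0 to 198 FPKM in the other neurons. Gstm7 belongs to a family of similar genes between which reads can be split wrongly. Of the 10 glutathione transferases compared it was the 1 called; among JCb5.2 cells it was not compared and Gstm1 was higher. Its relative Gstm5 was at 118 to 203 FPKM in the Cartpt-high and 188 to 352 FPKM in the Cartpt-low cells. H2-Q2, a major histocompatibility gene with a difference of -4.14, has near-identical copies and is uncertain in the same way.

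The next largest difference in this direction was that of Bckdha. Bckdha, the branched-chain keto acid dehydrogenase subunit, was at 0, 0.148, 0.430 and 1.57 FPKM in the Cartpt-high and 45.5, 45.2, 22.6 and 34.0 FPKM in the Cartpt-low cells. This difference was -4.67. Pck2, the mitochondrial phosphoenolpyruvate carboxykinase, differed by -3.68 and Maob, which degrades monoamines, by -3.47. Nuclear genes of oxidative phosphorylation showed no call in 49 genes compared, with a median difference of 0.28, and ribosomal protein genes none in 56, with a median of 0.16. The difference was positive in 40 of the 49 and in 39 of the 56, and the medians among JCb5.2 cells were 0.17 and 0.04. Among JCb5.2 cells 1 of these genes, Uqcrb of complex III, was called higher.

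Ntm, the adhesion molecule neurotrimin, was at 0.507 to 4.06 FPKM in the Cartpt-high and 13.6 to 75.6 FPKM in the Cartpt-low cells, with a median of 61.3 FPKM in the other neurons. Slitrk1, a synaptic adhesion protein, was at most 0.190 FPKM in the Cartpt-high cells and at 25.3, 10.3, 9.70 and 9.70 FPKM in the Cartpt-low cells. Atp1b2, a subunit of the sodium pump, differed by -3.87, the complement regulator Susd4 by -3.69, the secreted Nell1 by -3.64 and the laminin subunit Lamb3 by -3.43. Also among the 20 were Ifi30, a lysosomal reductase (-4.36), the ubiquitin ligase adaptor Asb13 (-4.14), the calcium-dependent Ras regulator Rasa4 (-3.60), Nsmce4a of the SMC5/6 complex (-3.56) and Trp53i11 (-3.44).

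Of the 12 genes of POMC processing 10 were compared, with a median difference of -0.37. Of these Pcsk2 was called lower, and Pomc, which chose the cells, was higher. Pcsk2, the convertase that releases alpha-MSH and beta-endorphin (chr2:143546133-143816282, plus strand), was at 11.7, 3.27, 1.39 and 0.644 FPKM in Cartpt-high cells 4, 6, 12 and 13 and at 72.1, 50.7, 60.3 and 175 FPKM in Cartpt-low cells 5, 11, 21 and 22. The difference was -4.39, and -4.01 among JCb5.2 cells, with 0.189 to 106 FPKM and a median of 25.1 FPKM in the other neurons. Among the 8 POMC cells the 4 Cartpt-high cells thus held less Pcsk2 than the 4 Cartpt-low cells, and 13 of the 15 other neurons exceeded the lowest Cartpt-high cell.

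Pcsk1, the convertase that makes the first cuts, was named after its values were seen. It was at 25.8, 1.66, 1.46 and 0.799 FPKM in the Cartpt-high and 62.3, 38.9, 40.4 and 16 FPKM in the Cartpt-low cells. Its groups overlapped through cells 4 and 22, so it was not called over the 8 cells, while it was called lower among JCb5.2 cells (-3.58). Of the later enzymes, Cpe, the carboxypeptidase that trims the cut ends, was at 259 to 494 FPKM and 396 to 719 FPKM, and Pam, which amidates alpha-MSH, at 1.59 to 4.52 FPKM and 2.19 to 8.45 FPKM, with overlap in each. The abundant Pcsk1n, an inhibitor of Pcsk1, and Atp6ap2, a subunit linked to the granule proton pump, also overlapped between groups. Of 11 secretory granule genes compared, Vgf, a granule protein and peptide precursor, was higher, at 124, 698, 152 and 389 FPKM against 51.4, 43.5, 15.1 and 80.0 FPKM (difference 2.69, and 2.48 among JCb5.2 cells), and none was lower. The median difference of that list was 0.67 (0.83 among JCb5.2 cells, where the granule protein Ptprn was higher too), and its abundant members Syt4, Rab3a and Scg2 overlapped between groups.

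Of 15 neuropeptide genes compared, Sst was higher and Pnoc, the nociceptin precursor, lower (-1.91), besides Cartpt, which was higher by the choice of the groups. No neuropeptide gene was called lower among JCb5.2 cells, so the call of Pnoc was not obtained there. Gal, encoding galanin, was at 69.0, 3279, 392 and 1340 FPKM in the Cartpt-high cells and at 259, 93.3, 78.1 and 420 FPKM in the Cartpt-low cells, which overlapped. The list's median of -0.98 rested in part on Oxt and Avp, which were at 3014 and 5186 FPKM in cell 21 and followed the title prefix; among the 10 compared in JCb5.2 cells the median was 0.20. Npy and Agrp, peptides of the neighbouring AgRP neurons, were at no more than 20.6 and 5.70 FPKM in the 8 cells, against up to 2660 and 433 FPKM in other neurons.

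Of 12 genes of glutamate and GABA metabolism and transport compared, Gad2 was higher and Aldh5a1 lower, with a median difference of -0.17. Gad2, a GABA-synthesising enzyme, was at 101, 87.5, 55.6 and 130 FPKM in the Cartpt-high and 40.6, 1.26, 19.2 and 25.0 FPKM in the Cartpt-low cells, a difference of 2.60 (3.23 among JCb5.2 cells). Aldh5a1, which degrades the GABA product succinic semialdehyde, was under 0.1 FPKM in all 4 Cartpt-high cells and at 4.57, 10.6, 0.914 and 1.90 FPKM in the Cartpt-low cells. Its locus overlaps 2 loci on the opposite strand, so the caveat on strand given for Timp1 holds for it too. Gad1, the other GABA-synthesising enzyme, was at 97.2, 0.364, 125 and 0.862 FPKM and at 56.7, 40.1, 2.97 and 76.2 FPKM, split within each group rather than between them. Slc32a1, the transporter that loads GABA into vesicles, was at most 0.0864 FPKM in the Cartpt-high cells and at 2.81 FPKM in cell 5, with 0 in the other Cartpt-low cells. Among JCb5.2 cells, Gad2 and the glutaminase Gls2 were higher and the glutamine transporter Slc38a2 and the GABA transaminase Abat lower, of 10 compared, with a median of -0.86.

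Slc17a6 encodes the vesicular glutamate transporter 2, whose locus drives the Cre used to label the cells. It was at 22.9, 39.4, 10.7 and 22.7 FPKM in Cartpt-high cells 4, 6, 12 and 13 and at 30.8, 0.520, 5.04 and 1.65 FPKM in Cartpt-low cells 5, 11, 21 and 22. All 4 Cartpt-high cells were above cells 11, 21 and 22, but cell 5 lay among them, so Slc17a6 was not called. The other 15 neurons had 4.47 to 139 FPKM with a median of 51.2 FPKM, above most POMC cells. Among 26 glutamate and GABA receptor genes none was called, with a median difference of -0.48. Among JCb5.2 cells 4 of 23 compared were lower, the glutamate receptor genes Gria1, Gria3 and Grm7 among them, and none higher, with a median of -1.06. Of all genes there, 7.47% were called lower and 5.96% higher.

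Published POMC subtype markers were taken as a list of 13 genes, of which 10 were compared; Anxa2 and Gad2 were higher and none was lower, with a median difference of -0.48. Among JCb5.2 cells the median was 0.84 over 8 genes, of the opposite sign, with the same 2 genes higher and Oprm1 lower. Anxa2, a calcium-dependent membrane-binding protein (chr9:69453683-69491785, plus strand), was at 3.00, 29.2, 1.38 and 22.4 FPKM in the Cartpt-high cells, at most 0.0981 FPKM in the Cartpt-low cells and at most 0.579 FPKM in the other 15 neurons. S100a10, which forms a complex with annexin A2, was at 27.7, 76.7, 35.0 and 27.2 FPKM in the Cartpt-high cells and at 4.20, 25.2, 4.34 and 10.7 FPKM in the Cartpt-low cells, with at most 15.5 FPKM in other neurons. The 2 partners were therefore both above all other neurons in each Cartpt-high cell, with cell 11 close behind for S100a10 alone. The orphan adhesion receptor Gpr133 was listed at 0 in all Cartpt-low cells and at 5.57 to 8.70 FPKM in the Cartpt-high cells.

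Ttr and Glipr1, markers of other published POMC classes, did not form a counterpart in the Cartpt-low cells. Ttr, the thyroid hormone carrier, was at 28.9 FPKM in cell 11 and at 0, 1.36 and 1.74 FPKM in cells 5, 21 and 22. Glipr1 was at 40.5 FPKM in cell 5 and at 0.887, 5.04 and 4.04 FPKM in the others, overlapping the 0.397 to 4.36 FPKM of the Cartpt-high cells. The Cartpt-low cells thus differed from each other in Ttr and Glipr1. Oprm1, of the same list, and the receptor Glp1r, both given below, leaned to the Cartpt-low side. Each overlapped between the groups through a single cell and was not called.

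**Figure D4:**
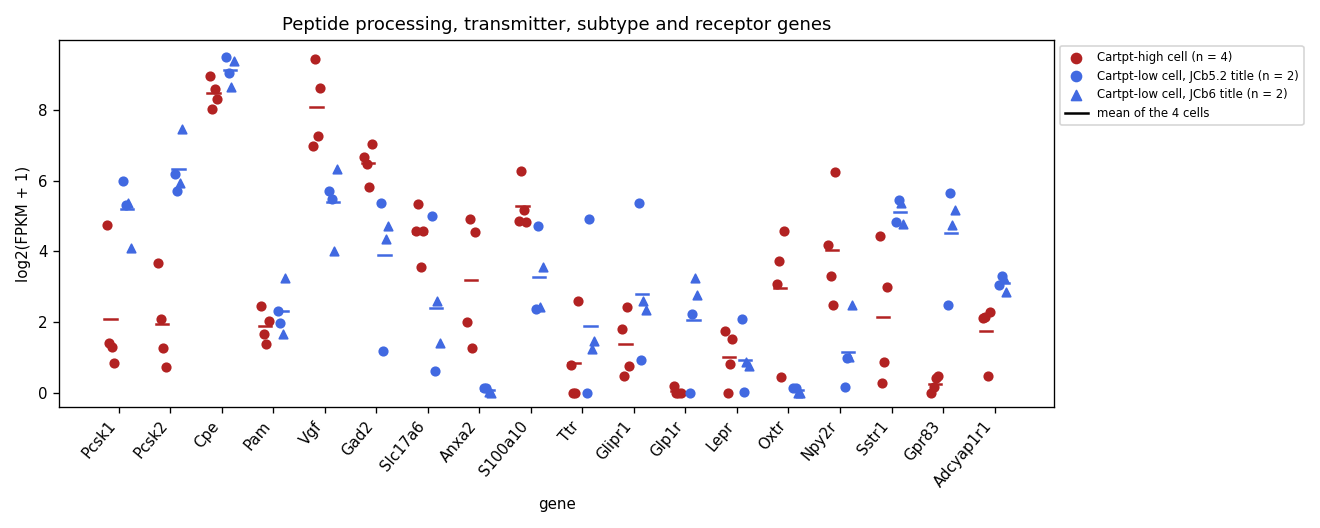
Log2(FPKM + 1) (y axis) of genes of peptide processing, transmitters, subtype markers and receptors (x axis) in each POMC cell, with red for Cartpt-high cells, blue for Cartpt-low cells, triangles for the JCb6 titles and short lines for the means of 4 cells. Pcsk2, Sstr1, Gpr83 and Adcyap1r1 were higher without overlap in the Cartpt-low cells and Vgf, Gad2, Anxa2, S100a10 and Oxtr in the Cartpt-high cells.

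Among receptors through which hormones reach POMC neurons, 1 was called higher and none lower. Of all genes, 1.84% were called higher and 2.03% lower, and 1 call among 10 genes is too few to set against these shares. Of 10 hormone and gut peptide receptors compared, Oxtr, the oxytocin receptor (chr6:112473684-112489808, minus strand), was higher, at 7.46, 12.2, 0.360 and 22.8 FPKM against at most 0.105 FPKM (difference 2.89, and 2.82 among JCb5.2 cells, where Pgr and Il6st, the progesterone receptor and a cytokine receptor subunit, were lower). In cell 12 its level was under 1 FPKM. Cckar, the cholecystokinin receptor, was at 22.9, 125, 4.29 and 68.1 FPKM and at 19.2, 59.5, 0 and 17.7 FPKM, which overlapped. Glp1r, the target of GLP-1 drugs, was at 3.66, 8.45 and 5.78 FPKM in Cartpt-low cells 11, 21 and 22 and at 0.143, 0, 0 and 0 FPKM in the Cartpt-high cells, but was listed at 0 in cell 5 and so was not called.

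Lepr, the leptin receptor, was at 2.36, 0, 0.770 and 1.88 FPKM in the Cartpt-high cells and at 3.20, 0.0147, 0.812 and 0.675 FPKM in the Cartpt-low cells. Low and high values of Lepr thus occurred in both groups. Htr2c, a serotonin receptor known in POMC neurons, was at most 0.104 FPKM in the 8 cells. Of 23 genes of leptin and insulin signalling compared, Ptpn2, a phosphatase that acts on the leptin pathway, was higher, at 18.6, 68.0, 24.6 and 20.7 FPKM against 0.433, 18.1, 10.6 and 0.418 FPKM, and none was lower. That list's median difference was 0.21. Among JCb5.2 cells, Pik3r1 was higher as well and Irs2 lower, both of the insulin pathway.

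Of 15 neuropeptide receptors compared, 3 were lower and none higher, against 2.03% and 1.84% of all genes, with a median difference of 0.19. Gpr83 (chr9:14860254-14869499, plus strand), a receptor reported to bind the granule peptide PEN, was at 0, 0.113, 0.329 and 0.376 FPKM in the Cartpt-high and 4.62, 48.7, 25.9 and 34.6 FPKM in the Cartpt-low cells, a difference of -4.25. It was not compared among JCb5.2 cells. Sstr1, a somatostatin receptor, was at 20.7, 0.202, 0.837 and 6.99 FPKM against 27.3, 42.4, 40.0 and 26.3 FPKM (-2.95, and -2.99 among JCb5.2 cells), and Adcyap1r1, the PACAP receptor, at 0.392 to 3.91 FPKM against 6.15 to 8.90 FPKM (-1.35). The levels of Sstr1 and Adcyap1r1 were even across the 4 Cartpt-low cells, including both title prefixes. The NPY receptors Npy1r and Npy2r were not called over the 8 cells: Npy2r was at 17.2, 8.86, 4.56 and 74.1 FPKM against 0.117, 0.956, 0.996 and 4.61 FPKM, with cell 22 just above cell 12. Oprm1, the mu opioid receptor that beta-endorphin acts on, was at 0.225, 0.143, 19.3 and 0.0632 FPKM in the Cartpt-high cells and at 21.9, 29.1, 17.4 and 6.54 FPKM in the Cartpt-low cells, and cell 12 alone made the groups overlap. Among JCb5.2 cells, Npy2r was called higher, and Oprm1, Sstr1, Adcyap1r1 and the orexin receptor Hcrtr2 lower, of 14 compared. Of all genes there, 5.96% were called higher and 7.47% lower. Of 4 monoamine and acetylcholine receptors compared none was called.

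Calls among ion channels fell on single subunits. Of 29 potassium channel genes compared, Kcnk10 and Kcnc4 were higher and Kcnk2 lower, with a median difference of 0.06. Of all genes, 1.84% were called higher and 2.03% lower. Kcnk10 and Kcnk2 encode the related leak channels TREK-2 and TREK-1: Kcnk10 was at 18.1, 17.4, 0.579 and 30.9 FPKM in the Cartpt-high cells and at most 0.119 FPKM in the Cartpt-low cells, while Kcnk2 was at 5.77, 0.211, 1.03 and 0.377 FPKM against 39.7, 7.18, 18.1 and 30.8 FPKM. The 2 TREK genes thus lay in opposite directions, with differences of 3.47 and -3.28 (3.48 and -3.06 among JCb5.2 cells). Kcnc4, a fast voltage-gated channel, differed by 1.95. Among JCb5.2 cells these 3 were called again, and Kcnip4, a potassium channel partner, was lower as well.

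Of 29 sodium, calcium, HCN and TRP channel genes compared, Cacng5, a subunit that accompanies AMPA receptors, was higher (2.17). In the other direction 3 auxiliary subunits were lower, against 2.03% of all genes called lower. These were the calcium channel beta subunits Cacnb3 (-3.62) and Cacnb4 (-1.77) and the sodium channel subunit Scn3b (-2.85). Cacnb3 was at most 0.729 FPKM in the Cartpt-high cells and at 86.6, 16.2, 4.60 and 11.7 FPKM in the Cartpt-low cells. Cacnb3 was not compared among JCb5.2 cells, where Scn2b and Cacng2 were higher in addition to Cacng5, and Scn3b and Cacnb4 lower. Among 24 synaptic vesicle genes none was called, whereas among JCb5.2 cells Rims1 and Pclo were higher and Rab3c lower, of 22. Among 30 genes of protein folding in the endoplasmic reticulum Edem1, which targets misfolded glycoproteins for degradation, was higher (2.44) and none was lower. Among JCb5.2 cells 2 of these 30 were higher, Edem1 and Hyou1, and 3 lower, Herpud1, Sel1l and Syvn1.

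None of the 18 arcuate transcription factors compared was called, with a median difference of -0.24. Nkx2-1, Tbx3, Isl1 and Six3, factors of arcuate and POMC identity, were present at 3.97 FPKM or more in all 8 cells. Prdm12, which is needed for Pomc expression, was at 29.0, 14.3, 2.87 and 18.7 FPKM in the Cartpt-high cells and at 0.942, 0.601, 4.39 and 1.04 FPKM in the Cartpt-low cells, with cell 21 above cell 12. Among JCb5.2 cells Prdm12 was called higher and Onecut2 lower, of 13 factors.

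Immediate-early genes, which neurons switch on within minutes of stimulation, were, of the 38 lists, the list with most calls. Of 25 compared, 8 were lower in the Cartpt-high cells and none higher, against 2.03% of all genes called lower, and the median difference was -1.88. Fos (chr12:85473901-85477270, plus strand) was at 431, 319, 353 and 323 FPKM in Cartpt-high cells 4, 6, 12 and 13 and at 1226, 1175, 1527 and 1314 FPKM in Cartpt-low cells 5, 11, 21 and 22, a difference of -1.88. Values within each group were close, and the other 15 neurons spanned both, from 11.2 to 2469 FPKM with a median of 524 FPKM. The summed level of the list was 1016 to 1751 FPKM in the Cartpt-high and 3612 to 5038 FPKM in the Cartpt-low cells, and 22 of the 25 genes had a negative difference.

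Nr4a1, an orphan nuclear receptor (chr15:101266846-101274794, plus strand), was at 1.53, 4.59, 4.17 and 2.74 FPKM in the Cartpt-high cells and at 48.9, 209, 153 and 57.0 FPKM in the Cartpt-low cells, a difference of -4.59 (-4.65 among JCb5.2 cells). Nr4a1 is known to bind the Pomc promoter in the pituitary. The zinc finger factor Egr1 was at 213, 9.92, 70.5 and 31.0 FPKM against 298, 629, 220 and 337 FPKM (-2.84), with cell 4 close to cell 21. Dusp1, a phosphatase that restrains MAP kinases, differed by -2.56, and the Fos and Jun family members Fosb, Junb and Jun by -2.19, -1.69 and -1.65. Nr4a3, low throughout, was at most 0.134 FPKM in the Cartpt-high cells and at 0.165 to 7.18 FPKM in the Cartpt-low cells.

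Among JCb5.2 cells, 8 of 20 immediate-early genes compared were lower and none higher, against 7.47% of all genes called lower there. The median difference was -1.83. Nr4a3 was not compared there and Klf6 was called in addition to the other 7. Separation of those 7 was fixed by their separation over the 8 cells, so this count is not a second, independent result. The count was sensitive to where the groups were drawn. With Pomc at or above 500 FPKM, which puts cells 3 and 16 in the Cartpt-low group, 1 gene, Fosb, was called, and with a Cartpt split at 20000 FPKM, which puts cell 13 there, 1 gene, Homer1, was called. Homer1, a synaptic scaffold gene, was named after its value was seen. Leaving out any 1 cell gave 7 to 12 genes.

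**Figure D5:**
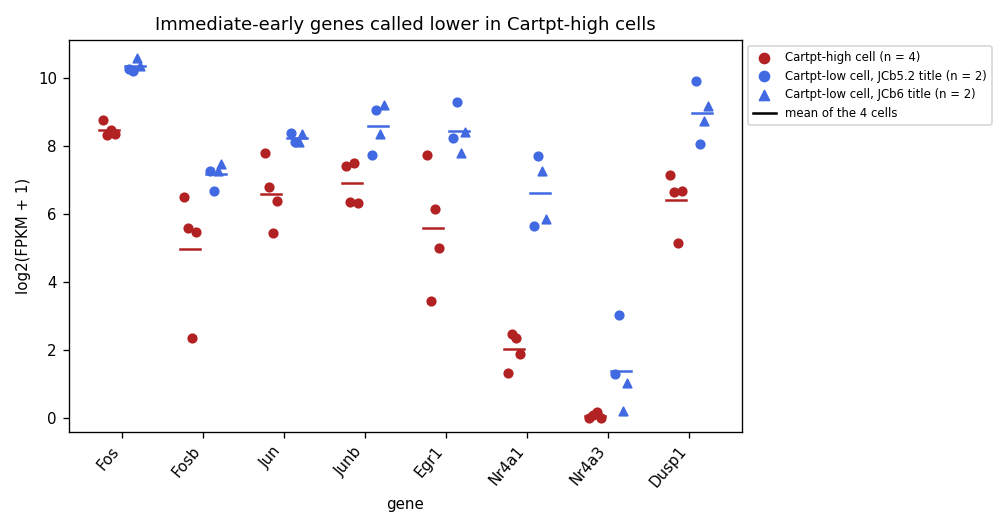
Log2(FPKM + 1) (y axis) of the 8 immediate-early genes called lower in the Cartpt-high cells (x axis), with 1 point per POMC cell, red for Cartpt-high cells, blue for Cartpt-low cells, triangles for the JCb6 titles and short lines for the means of 4 cells. In each gene the 4 red points lie below the 4 blue points, for Fos at 319 to 431 FPKM against 1175 to 1527 FPKM.

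Whole profiles of the groups were not far apart. Pearson's r of log2(FPKM + 1) over the 8864 genes, which are not independent of each other, was 0.677 to 0.722 in the 6 pairs of Cartpt-high cells and 0.648 to 0.733 in the 6 pairs of Cartpt-low cells. Pairs across the groups gave 0.627 to 0.705 within the JCb5.2 prefix (8 pairs) and 0.626 to 0.725 between prefixes (8 pairs). The ranges overlapped, and depth and detection of low genes enter every pair.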

How the data were processed

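The deposited values are FPKM, in 1 table with a column for each cell. Per the submitters' processing notes, the authors worked on mm10 with CASAVA 1.8, TopHat and Cufflinks. Annotation, strand use, filters and other versions: not given in the sources used here. SmartSeq2 has no molecular identifiers, so amplified copies count as fragments, and no absolute depth was derived. Relative depth came from the most frequent ratio of values under 0.5 FPKM between cells. Of 23896 rows, 12 leftover spreadsheet rows holding other, partly negative values, 286 identical copies and 27 rows with date names were dropped, and the rows of 124 symbols were summed, leaving 23373 genes. Locus starts were read as counted from 0, and 1 was added. FPKM values were compared on the log2(FPKM + 1) scale with Python 3.11.15, numpy 2.4.6 and pandas 2.3.3, after the calculation was tested on simulated data. Strand, gene type and identifiers are from GENCODE for mm10.

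The members and the 38 gene lists were chosen with earlier results of these data known. The rule for named genes took Pomc, Cartpt and Slc17a6, the 20 called genes with the largest difference in each direction and, in each list, every called member and up to 4 with the highest mean. Pcsk1, Pam, Slc32a1, S100a10, Gpr133, Suds3, Ttr, Glipr1, Glp1r, Lepr, Htr2c, Npy2r, Oprm1, Prdm12, Tbx19, Homer1 and the genes called among JCb5.2 cells alone were named after their values were seen. A few genes chosen this way are left unreported. Alternatives changed the pseudocount, the filters, the scaling, the least difference, the thresholds and the cells. No p-value was computed, because each sample is 1 cell and no label ties cells to the 2 mice.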

Additional observations from a re-analysis of the deposited data

How the results depend on the processing

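Counts of called genes moved with what was asked of a gene. With a pseudocount of 10 FPKM, 78 genes were higher and 83 lower in the Cartpt-high cells (220 and 273 among JCb5.2 cells). With at least 10 FPKM in at least 3 cells the counts were 89 and 90 (228 and 263), and with a difference of at least 2 they were 97 and 98 (286 and 296), with 4 immediate-early genes, Dusp1, Egr1, Fosb and Nr4a1. With Pomc at or above 500 FPKM they were 84 and 58, with 1 immediate-early gene, and with Pomc at or above 2000 FPKM, which leaves cell 5 as the only Cartpt-low cell, 1007 and 1102. With the Cartpt split at 20000 FPKM, 1 immediate-early gene was called. Fewer or more cells in a group change how easily groups separate, and a lone cell leaves no spread.

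Leaving out 1 cell gave 218 to 325 higher and 249 to 333 lower genes. The higher count moved by over 1.5 times without cells 4, 5, 11, 12 or 21 (256, 288, 255, 325 and 250) and the lower count without cells 4, 13, 21 or 22 (316, 332, 333 and 280). Among JCb5.2 cells the ranges were 461 to 1364 higher and 637 to 1183 lower genes, with 1364 and 1183 without cell 5 and 1007 and 1102 without cell 11. Rescaling each cell to a sum of 1000000 moved the median difference of all genes to -0.14. For a gene called without overlap, leaving out cells or changing the pseudocount cannot turn the sign; both rescalings could, and turned none of the 65 called genes among 149 named genes compared. A pseudocount of 0.1 FPKM moved 35 of them by more than the spread between cells. No paired analysis was possible because the cells form 1 labelled group with no shared replicate numbers. The unknown absolute depth limits every value near 0.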
